A study of Mus musculus with 7 samples.

Results

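The genes described here are 33 genes of glycolysis, lactate transport and the response to low oxygen, chosen by name from the 28786 genes of a mouse count table. They comprise the hypoxia-inducible factors and their oxygen sensors, glucose transporters, the enzymes from hexokinase to lactate dehydrogenase, the lactate transporters and a few hypoxia targets. All 33 had enough counts to be tested. Levels were measured by RNA sequencing of haematopoietic stem cells (HSCs), which give rise to every blood lineage. Libraries of 1500 sorted cells came from the bone marrow of mice aged 6 to 8 weeks, either normal controls or animals with MC38, a mouse colon carcinoma that grows in the C57BL/6J strain. The series title ties interferon-γ and Meis1 to myelopoiesis in the presence of a tumour. The sources used here do not state the tumour site, its size and duration, the sex of the mice, the sort markers or how many animals made up a library. The p-values therefore reflect spread among these libraries, and part of it may be technical.

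Glycolysis splits glucose into pyruvate in the cytosol, and lactate dehydrogenase turns pyruvate into lactate, which leaves the cell through monocarboxylate transporters. HIF1α, partnered by ARNT, raises transcription of many of these genes when oxygen is low, and with oxygen present the EGLN prolyl hydroxylases mark it for destruction by VHL. Quiescent HSCs are known for a glycolytic metabolism that HIF1α and the pyruvate dehydrogenase kinases help to maintain, and neutrophils are known to live largely on glycolysis.

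The deposited table has 3 control and 4 MC38 columns. Control column 3 is not an independent library: across 9692 genes its values were 0.353 of the sum of controls 1 and 2, with 95% of genes between 0.341 and 0.371. Its spread around that line was 0.272 sampling errors, against at least 2.93 for the 60 such triples made without it. It is left out unless named, so n = 2 for control and n = 4 for MC38. These 6 libraries held 12131546 to 17657037 counts. Values are CPM, counts scaled to library size, with TMM factors, given as mean ± SD or per library, and tests are edgeR's two-sided quasi-likelihood test with Benjamini-Hochberg adjustment over 14226 genes. Genes known from HSCs were detected in the controls, among them Hlf at 169 and 207 CPM, Procr at 81.4 and 84.8 CPM and Slamf1 at 33.2 and 29.1 CPM. So were Cd48, at 59.3 and 36.0 CPM, and Flt3, at 119 and 105 CPM, which mark progenitors downstream of HSCs. None of the 16 stem and progenitor genes listed, these included, was called in edgeR, with 1 higher and 2 lower at an unadjusted p under 0.05. Neutrophil transcripts were abundant too. The 14 neutrophil genes listed summed to 32670 and 33450 CPM in the controls and 57110 to 65630 CPM in MC38, none was at 0, and 8 rose and 1 fell.

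One member passed the test. Slc16a3, which encodes the lactate exporter MCT4, rose 2.94-fold in MC38 (edgeR adjusted p = 0.00313), and the other 32 genes did not pass. No member was called lower in edgeR, while 6 were lower and 4 higher at an unadjusted p under 0.05; DESeq2 called 1 lower and limma-voom 0. Of all genes tested 1.04% were called higher and 0.569% lower, and the 1 call among 33 members is 3.03%. The median log2 fold change of the members was -0.01 and that of all genes 0.01. Of the members, 16 had a fold change above 0 and 17 below. Groups without overlap made up 29.0% of all genes. These are bulk libraries, so fewer cells of a type and less RNA per cell cannot be told apart.

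All 4 MC38 libraries lay above both controls for 7 members (21.2%, against 14.0% of all genes) and below both for 9 (27.3%, against 15.0%). The 4 members higher at an unadjusted p under 0.05 were 12.1% of the list, against 9.26% of all genes, and the 6 lower were 18.2%, against 8.22%. The 9 lower members were Egln1, an oxygen sensor, and 8 enzymes of the glycolytic chain. The 7 higher members were not enzymes of the chain: they were a glucose transporter, a lactate transporter, both PFKFB enzymes, both pyruvate dehydrogenase kinases and Vegfa.

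**Figure D1:**
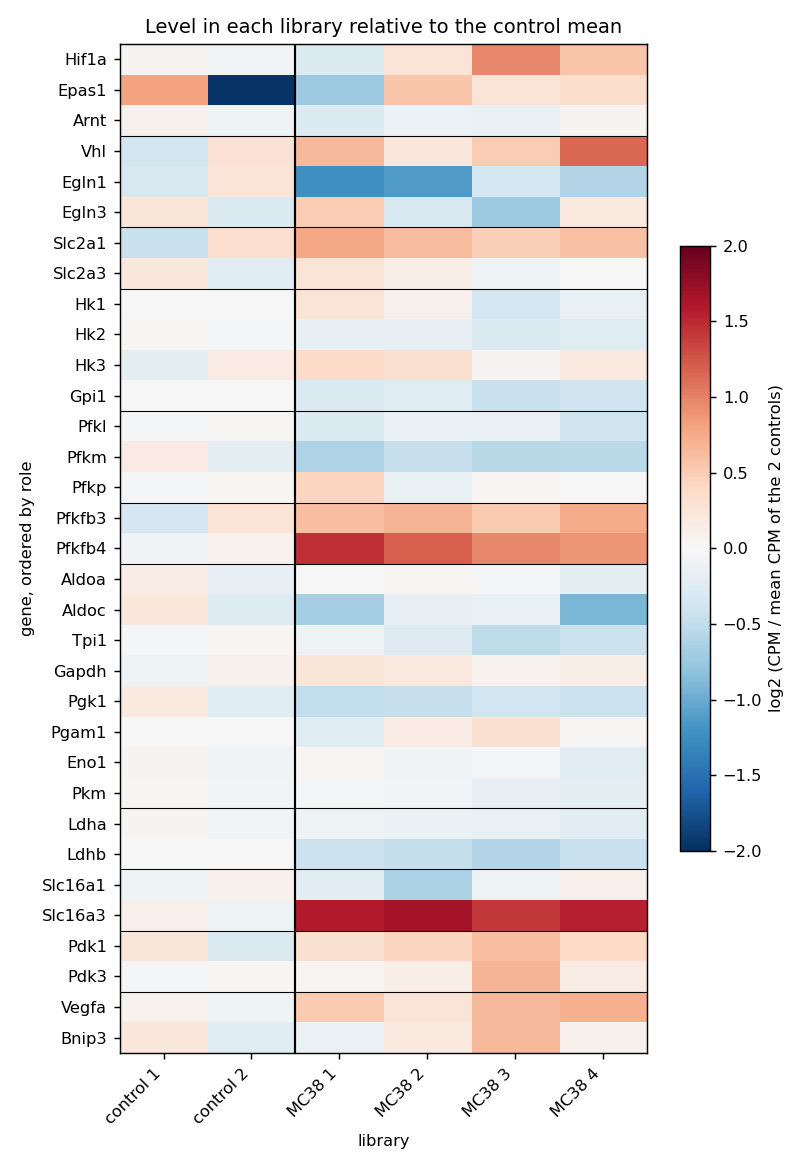
Colour gives the log2 ratio of each library's CPM to the mean of the 2 controls, with the 33 genes as rows ordered by role and the 6 libraries as columns. Slc16a3 and Pfkfb4 are higher in all 4 MC38 libraries, Ldhb, Gpi1, Pgk1 and Pfkm are lower in all 4, and Epas1, with 8 to 55 counts per library, differs most between the controls.

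**Figure D2:**
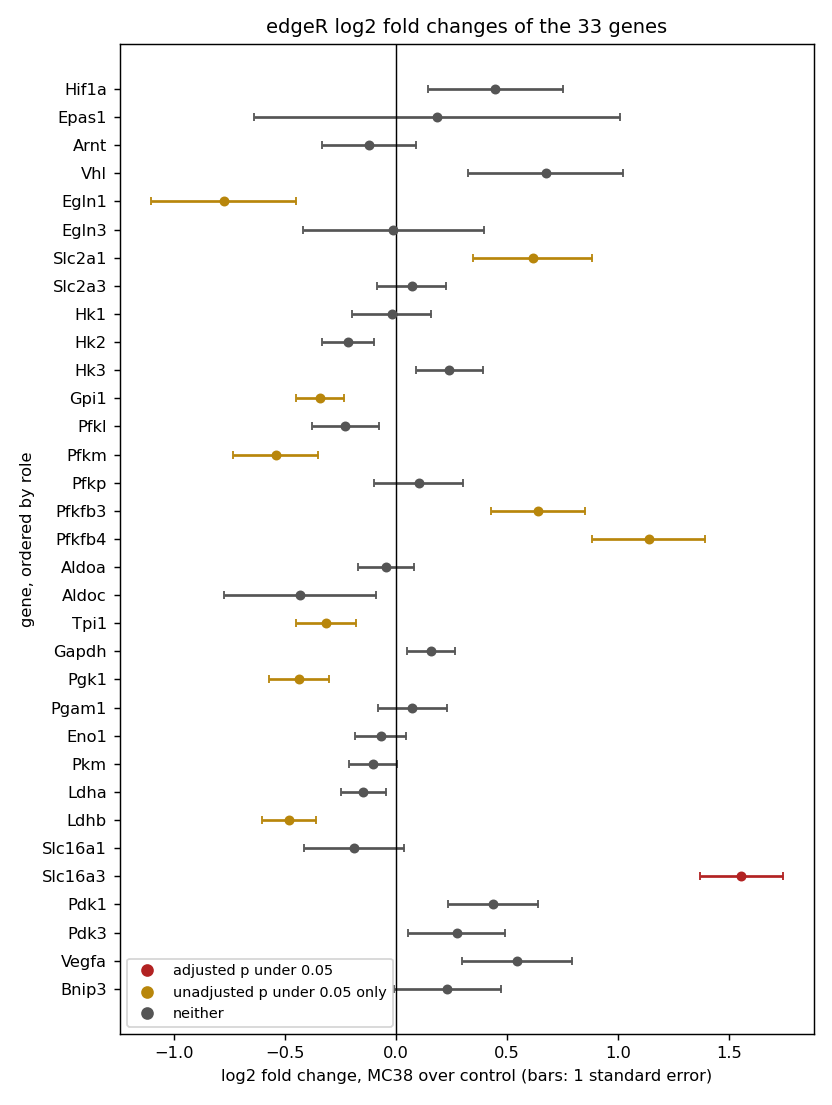
Points are edgeR log2 fold changes of MC38 over control and bars are 1 standard error, with genes ordered by role. Slc16a3 (1.56) is the single gene past the adjusted threshold, and 9 others passed at the unadjusted threshold only.

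The stretches just upstream of the start sites of the called lactate transporter gene, its related gene Slc16a1 and Ldhb are printed to show where the core of the HIF response element occurs. Sequences are from RefSeq's table on GRCm38.p6, read 5′ to 3′ on the gene's strand, up to 250 bases before the start and ending earlier where an annotated exon begins. Capitals mark ACGTG or GCGTG on either strand, which read CACGT or CACGC when on the other strand. The Slc16a3 stretch, on the plus strand, is chr11:120948817-120949052, the Slc16a1 stretch, on the plus strand, is chr3:104638414-104638663 and the Ldhb stretch, on the minus strand, is chr6:142507958-142508207.
Slc16a3: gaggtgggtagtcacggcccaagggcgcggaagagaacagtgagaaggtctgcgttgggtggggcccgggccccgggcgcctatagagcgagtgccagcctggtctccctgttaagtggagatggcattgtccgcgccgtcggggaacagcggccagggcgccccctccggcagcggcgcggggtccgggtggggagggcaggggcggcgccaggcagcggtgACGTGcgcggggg
Slc16a1: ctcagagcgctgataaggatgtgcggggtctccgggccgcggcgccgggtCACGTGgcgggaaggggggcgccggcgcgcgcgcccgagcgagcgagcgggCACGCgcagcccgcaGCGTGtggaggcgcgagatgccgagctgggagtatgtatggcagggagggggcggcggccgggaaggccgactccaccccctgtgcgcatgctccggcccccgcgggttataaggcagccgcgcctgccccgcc
Ldhb: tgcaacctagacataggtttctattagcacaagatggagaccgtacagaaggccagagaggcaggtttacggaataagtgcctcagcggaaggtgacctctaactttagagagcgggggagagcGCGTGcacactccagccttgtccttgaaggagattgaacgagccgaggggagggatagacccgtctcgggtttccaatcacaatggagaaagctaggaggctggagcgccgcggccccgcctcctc

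The Slc16a3 stretch held 1 match, ACGTG, and the full window of 250 bases a second ACGTG further on, inside an annotated exon. This window lies within the gene, downstream of its outermost annotated start. Slc16a1 had 4 matches, of which the first pair overlap in the palindrome CACGTG, and Ldhb had 1. Pfkfb4, whose stretch is not printed, had 0 matches before its annotated exon and 1, GCGTG, in the full window. Of the 31 members with a window, 28 had at least 1 match (90.3%), against 41.5% of 27025 genes. Over windows rather than genes the shares were 80.0% of 45 and 38.6% of 32851. The members' windows were also richer in G and C, with a median of 60.4% against 52.4%, and GCGTG and ACGTG each contain CG. A match is a description of the letters, and matches were present in the called gene and in genes that were not called.

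Slc16a3 (ENSMUSG00000025161, chromosome 11: 120948480 to 120960868) encodes MCT4, a transporter known for exporting lactate from cells with high glycolytic flux. It was at 18.9 and 16.3 CPM in the controls and at 52.9, 56.1, 47.0 and 51.6 CPM in MC38 libraries 1 to 4. The groups were far apart, and both were narrow. The log2 fold change was 1.56 (SE 0.19, edgeR adjusted p = 0.00313). No annotated gene overlaps it. It passed in 12 of 13 alternatives and not without control replicate 2 (log2 fold change 1.46, edgeR adjusted p = 0.0517, in a range of 5.03e-12 to 0.0517 over the alternatives). These alternatives include the fit with control column 3, which is not independent. They also include the replicate block, whose fold change rests on libraries 1 and 2 of each group. Transcripts of other cell types differed between the control and MC38 libraries as well. Of the 14 neutrophil genes, 10 were higher in all MC38 libraries, such as S100a9, which went from 8042 and 7980 CPM to 15870 to 19810 CPM. The primary granule genes Mpo, Elane and Prtn3 were lower in all of them: Mpo fell (log2 fold change -0.64, edgeR adjusted p = 0.0304), while Elane (-0.31) and Prtn3 (-0.44) did not pass, and Cxcr2 overlapped. The 10 monocyte and macrophage genes listed went from a sum of 2159 to 2210 CPM to 3025 to 3188 CPM (2 rose). That sum is mostly Lyz2, at 1710 and 1733 CPM in the controls and 2463 to 2552 CPM in MC38. Of the 10 genes 8 had a fold change above 0 and 2 below, namely Csf1r (log2 fold change -0.27) and Mertk (-0.22). The 9 B and plasma cell genes went from 2849 to 3354 CPM to 5041 to 5933 CPM (2 rose), a sum that is mostly Igkc and Ighm. None of the 10 T and NK cell genes was called in edgeR, but Cd3g, Cd3d, Klrb1c and Trac were higher at an unadjusted p under 0.05, by 1.79-fold (Cd3d) to 3.18-fold (Klrb1c), and the median log2 fold change was 0.96. Their sums, 421.7 to 488 CPM in control and 403.4 to 448.8 CPM in MC38, are mostly Nkg7. The 2 T and NK cell genes with a fold change below 0 were Nkg7 (log2 fold change -0.20) and Gzma (-1.14), and neither passed. Of the 5 basophil and mast cell genes tested, Mcpt8 and Prg2 fell, both being 4.13-fold higher in control (edgeR adjusted p = 0.00444 and 0.0256). Hdc rose 2.40-fold (edgeR adjusted p = 0.00105), and Ms4a2 was at 0 in every library. Prss34 was lower in all MC38 libraries (log2 fold change -3.47, edgeR adjusted p = 0.15). Cpa3 was higher in all of them (0.37, edgeR adjusted p = 0.41), and neither passed. The part of these transcripts in the Slc16a3 result, and in the differences of the other genes, was not tested.

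Slc16a1 encodes MCT1, which carries lactate and pyruvate in both directions. It did not pass: the controls had 35.5 and 39.8 CPM and the MC38 libraries 32.4, 24.2, 35.2 and 40.3 CPM. The groups overlapped, and MC38 replicate 2 was lowest (log2 fold change -0.19, SE 0.23; adjusted p = 0.724 in edgeR). Per kilobase of annotated exon, Slc16a3 made up 30.7% and 25.5% of the sum of both transporters in the controls and 51.6 to 65.9% in MC38. In each control Slc16a1 was thus the more abundant per length, and in each MC38 library Slc16a3 was. The ratio of Slc16a3 to Slc16a1 per kilobase was 0.393 ± 0.072 in control and 1.37 ± 0.40 in MC38 (SD, n = 2 and 4); it was formed after the values were seen and has no test.

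**Figure D3:**
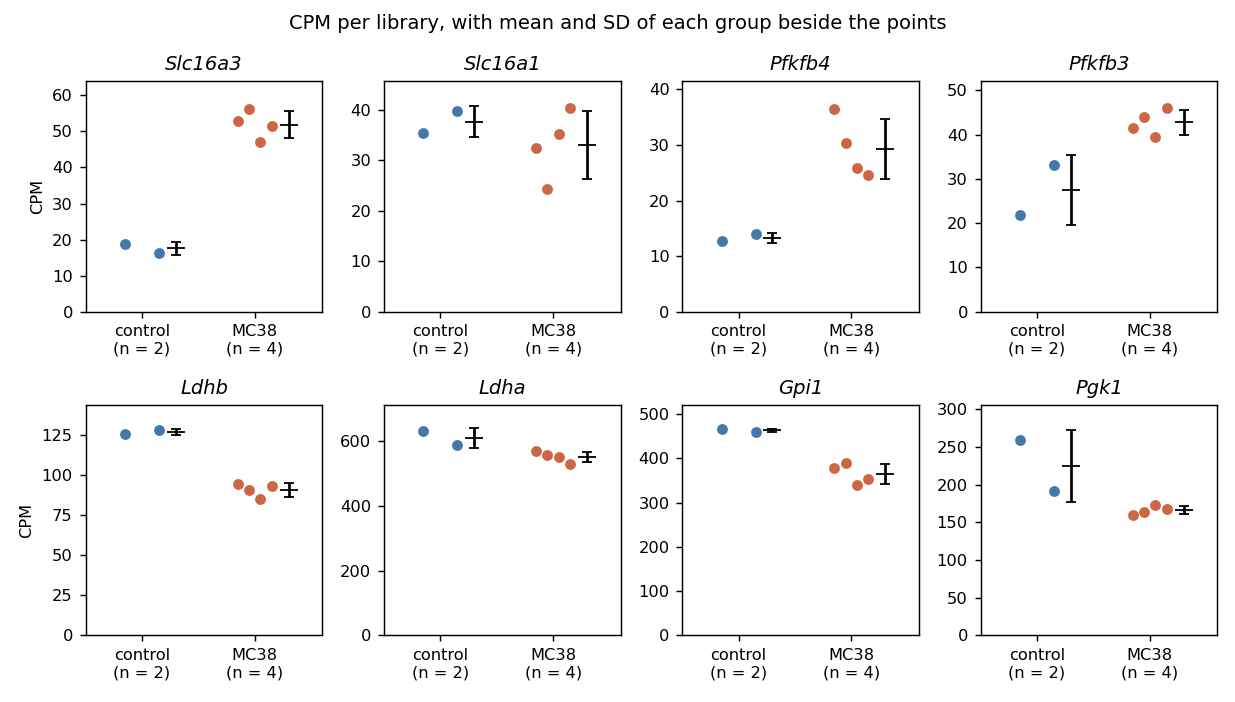
Points are CPM of single libraries for 8 genes, with the mean and SD of each group beside them and axes that start at 0. The 4 MC38 libraries lie at 47.0 to 56.1 CPM for Slc16a3 against 16.3 and 18.9 CPM in the controls, while those of Slc16a1 overlap the controls.

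The lactate dehydrogenases form tetramers from LDHA subunits, which favour lactate formation, and LDHB subunits, which favour its oxidation. Ldhb (chromosome 6: 142490249 to 142507957) was at 126 and 128 CPM in the controls and at 94.4, 90.9, 84.9 and 93.3 CPM in MC38. Every MC38 library was below both controls, which differed little from each other. The change missed the threshold (log2 fold change -0.48, SE 0.12; adjusted p = 0.0821 in edgeR). DESeq2 called it (adjusted p = 0.0152). So did the fit with control column 3 (edgeR adjusted p = 0.00959), which counts a column that is not independent and supports nothing. These were the only 2 calls among 13 alternatives. Ldha was at 634 and 589 CPM in control and 569, 557, 551 and 531 CPM in MC38, again with all MC38 libraries lower but by less (log2 fold change -0.15, SE 0.10; adjusted p = 0.503 in edgeR). Per kilobase Ldha was 70.5% and 68.6% of the sum of both in the controls and 73.0 to 75.5% in MC38. The share of Ldha was above both controls in each MC38 library; whether the fold changes of Ldha and Ldhb differ was not tested.

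The PFKFB enzymes make and break fructose 2,6-bisphosphate, the strongest activator of phosphofructokinase. Pfkfb4 (chromosome 9: 108991778 to 109032228) was at 12.7 and 14.0 CPM in the controls and at 36.5, 30.4, 25.9 and 24.6 CPM in MC38, so that the groups did not overlap. Its log2 fold change was 1.14 (SE 0.25), and it missed the threshold narrowly (edgeR adjusted p = 0.0585). It passed in 5 of 13 alternatives, among them DESeq2 (adjusted p = 0.00153), no filter on low counts (edgeR adjusted p = 0.0278) and the fit with control column 3 (0.00808), with a highest value of 0.291 without control replicate 1. Pfkfb3, the isoform with the strongest kinase activity, was at 21.8 and 33.02 CPM in the controls and 41.5, 44.0, 39.5 and 46.0 CPM in MC38. All MC38 libraries were higher, but the controls differed widely from each other (log2 fold change 0.64, SE 0.21; adjusted p = 0.167 in edgeR). Both PFKFB genes thus had higher values in MC38, and neither passed in the reported fit. The call with control column 3 supports nothing, as that column is not independent.

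Among the phosphofructokinases, whose reaction commits sugar to glycolysis, Pfkm encodes the muscle type. It was at 42.9 and 33.5 CPM in the controls and at 24.8, 27.8, 26.0 and 26.3 CPM in MC38 (log2 fold change -0.54, SE 0.19; adjusted p = 0.19 in edgeR). The MC38 libraries were close together and below both controls. Pfkm overlaps Senp1 on the other strand, and the sources used here do not state whether counting used strand; the same holds for Pfkp with Pitrm1, Tpi1 with Spsb2, Gapdh with Iffo1 and Hk3 with Unc5a. Pfkl, the liver type, was at 70.9 and 73.8 CPM in control and 59.9, 66.1, 66.1 and 55.0 CPM in MC38 (edgeR adjusted p = 0.478). Pfkp, the platelet type, was at 37.7 and 40.2 CPM in control and 52.6, 35.1, 40.2 and 39.4 CPM in MC38, where MC38 replicate 1 stood above the rest (edgeR adjusted p = 0.85). Per kilobase of annotated exon Pfkl and Pfkm were the main isoforms in both groups and Pfkp gave 10.7 to 19.3% of the sum. That order rests on the exon length used, 13401 bases for Pfkp against 3340 for Pfkm. By mean CPM Pfkp was level with Pfkm in control (39.0 and 38.2) and above it in MC38 (41.8 and 26.3).

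Hexokinases trap glucose in the cell as glucose 6-phosphate, and phosphoglucose isomerase, encoded by Gpi1, converts it to fructose 6-phosphate. Gpi1 was at 466 and 460 CPM in the controls and 379, 390, 339 and 353 CPM in MC38, with all MC38 libraries lower (log2 fold change -0.34, SE 0.11; adjusted p = 0.147 in edgeR). Hk2, the inducible isoform bound to mitochondria, was at 129 and 122 CPM in the controls and 112, 112, 103 and 106 CPM in MC38 (log2 fold change -0.22, SE 0.12; adjusted p = 0.386 in edgeR). The groups of both genes were apart, yet neither passed. Hk1 was at 105 ± 0.274 and 104 ± 19.7 CPM, and Hk3, an isoform of myeloid cells, at 105 ± 18.2 and 124 ± 11.8 CPM (SD, n = 2 and 4; edgeR adjusted p = 0.971 and 0.455). Per kilobase of annotated exon Hk3 was the most abundant of the 3 in every library. It made up 42.5% and 49.4% of their sum in the controls and 52.4 to 53.1% in MC38. That order rests on exon lengths of 3682 bases for Hk3, 5969 for Hk2 and 8532 for Hk1. By CPM Hk2 was the highest of the 3 in both controls.

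Apart from Aldoc, the genes of lower glycolysis were, with Ldha, the most abundant members per kilobase, with Gapdh first, and none passed. Pgk1, whose enzyme makes the first ATP of the pathway, was at 258 and 191 CPM in the controls and 160, 163, 173 and 167 CPM in MC38 (log2 fold change -0.44, SE 0.14; adjusted p = 0.143 in edgeR). All MC38 libraries were lower, but the size of the difference turned on control replicate 1: without it the log2 fold change was -0.20, and without control replicate 2 it was -0.64. Tpi1, the triose phosphate isomerase, was at 226 and 236 CPM in the controls and 215, 194, 163 and 171 CPM in MC38 (log2 fold change -0.31, SE 0.14; adjusted p = 0.272 in edgeR). For Gapdh, which is often used as a reference gene, the controls had 1040 and 1169 CPM and the MC38 libraries 1305, 1261, 1163 and 1199 CPM (log2 fold change 0.16, SE 0.11; adjusted p = 0.497 in edgeR). Its groups overlapped, in that MC38 replicate 3 was below control replicate 2. Pkm, which encodes a pyruvate kinase, was at 661 and 619 CPM in the controls and 632, 615, 570 and 567 CPM in MC38 (log2 fold change -0.10, SE 0.11, edgeR adjusted p = 0.674). Aldoa, Aldoc, Pgam1 and Eno1 overlapped between the groups, with log2 fold changes from -0.43 for Aldoc to 0.07 for Pgam1.

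Of the 17 enzymes from hexokinase to lactate dehydrogenase, 13 had a fold change below 0 and 4 above, with a median log2 fold change of -0.15, while 49.1% of all genes were below 0. The count was 13 under the 2 other scalings as well, and 11 to 14 when 1 library was left out. None of these enzymes passed in the reported fit. Together they took 0.511% and 0.496% of counts in the controls and 0.506%, 0.504%, 0.481% and 0.467% in MC38 libraries 1 to 4, so that the summed share overlapped between the groups. Processed copies can take reads from these genes. Copies named after the gene held 180 counts for Pgam1 (1.12% of its own) and 50 for Pgk1. Those of Gapdh, Ldha, Aldoa and Eno1 held 0 to 3. Copies under other names were not counted, and reads that match a gene and its copy equally were not examined. These counts thus do not measure how many reads were lost.

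Neither glucose transporter gene, whose products bring the sugar into the cell, passed. Slc2a1, which encodes GLUT1, was at 12.9 and 22.3 CPM in the controls and 29.9, 27.2, 24.4 and 26.3 CPM in MC38. The MC38 libraries were all higher, but control replicate 2 was near the lowest of them (log2 fold change 0.62, SE 0.27; adjusted p = 0.273 in edgeR). Slc2a3, which encodes the high-affinity GLUT3, was at 327 ± 73.6 and 344 ± 38.0 CPM (SD, n = 2 and 4; edgeR adjusted p = 0.869). Per kilobase Slc2a3 made up 85.6 to 93.5% of the sum of both transporters over the 6 libraries.

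Hif1a itself did not pass. It was at 32.2 and 30.0 CPM in the controls and at 25.6, 37.7, 60.4 and 45.8 CPM in MC38. The MC38 libraries ran from below both controls to far above them (log2 fold change 0.45, SE 0.30; adjusted p = 0.493 in edgeR). Epas1, which encodes HIF2α, was the member with the fewest counts, with 53 and 8 counts in the control libraries against 23 to 55 in the MC38 ones, and no difference was detectable at that depth (edgeR adjusted p = 0.936). Arnt, the common partner, was at 25.7 ± 2.2 and 23.6 ± 2.2 CPM (SD, n = 2 and 4; edgeR adjusted p = 0.828). HIF1α is set mainly by protein stability, which transcript counts do not measure.

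Of the oxygen sensors, Egln1, which encodes the main HIF prolyl hydroxylase PHD2, was at 18.8 and 28.2 CPM in the controls and 10.02, 10.7, 18.5 and 15.6 CPM in MC38. MC38 replicate 3 nearly reached control replicate 1 (log2 fold change -0.78, SE 0.33; adjusted p = 0.259 in edgeR). Egln3, itself a HIF target, was at 10.3 ± 2.6 and 10.2 ± 3.7 CPM, and Vhl, the ligase subunit that binds hydroxylated HIF, at 10.9 ± 3.4 and 17.4 ± 4.9 CPM (SD, n = 2 and 4; edgeR adjusted p = 0.993 and 0.358).

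The pyruvate dehydrogenase kinases keep pyruvate out of the mitochondrial citrate cycle. Pdk1 was at 40.0 and 27.7 CPM in the controls and 41.7, 45.7, 51.6 and 44.4 CPM in MC38 (log2 fold change 0.44, SE 0.20; adjusted p = 0.301 in edgeR). Pdk3 was at 33.5 ± 1.2 and 40.5 ± 8.7 CPM (SD, n = 2 and 4; edgeR adjusted p = 0.574). For both kinases all MC38 libraries were above both controls, by small margins for the nearest libraries. Vegfa, the vascular growth factor induced by hypoxia, was at 15.96 and 14.4 CPM in the controls and 21.8, 18.1, 23.7 and 24.9 CPM in MC38 (log2 fold change 0.55, SE 0.25; adjusted p = 0.294 in edgeR). Bnip3, a mitophagy receptor, was at 48.6 and 35.2 CPM in the controls and 38.5, 48.0, 65.7 and 44.5 CPM in MC38 (edgeR adjusted p = 0.677). The Vegfa groups were apart and the Bnip3 groups overlapped.

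Around these genes, a list of 95 other genes of sugar and lactate metabolism and of the hypoxia response was read, of which 81 were tested. Of these 2 rose (2.47%, against 1.61% of all genes called in either direction) and none was called lower in edgeR or limma-voom, with 12 lower and 9 higher at an unadjusted p under 0.05 and 1 called lower by DESeq2. Adpgk, an ADP-dependent glucokinase, was at 115 and 95.4 CPM in the controls and 170, 194, 199 and 188 CPM in MC38 (log2 fold change 0.84, SE 0.13; adjusted p = 0.0158 in edgeR). G6pdx, the first enzyme of the pentose phosphate pathway, which supplies NADPH, was at 46.4 and 56.7 CPM in the controls and 95.0, 98.3, 94.4 and 105 CPM in MC38 (log2 fold change 0.93, SE 0.15; adjusted p = 0.0161 in edgeR). The groups of both genes did not overlap. Neither gene passed without control replicate 1 (edgeR adjusted p = 0.0919 for Adpgk and 0.171 for G6pdx), control replicate 2 (0.123 and 0.0626), MC38 replicate 2 (0.0684 and 0.0656) or MC38 replicate 4 (0.0559 and 0.0684).

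By list, 1 of 10 other glycolytic isoforms rose, as did 1 of 15 genes of the pentose phosphate and glycogen branches, and none of 19 genes of glucose, pyruvate and lactate handling, 11 of hypoxia sensing, 23 hypoxia-inducible targets and 3 of gluconeogenesis was called. The genes of smallest p in each list show what lay below the threshold. Pygm, a glycogen phosphorylase, was at 24.6 ± 1.8 and 12.2 ± 2.0 CPM (SD, n = 2 and 4; edgeR adjusted p = 0.0887, and 0.016 in DESeq2, which called it). Mpc2, a subunit of the mitochondrial pyruvate carrier, was at 133 ± 0.395 and 168 ± 8.2 CPM (adjusted p = 0.178 in edgeR). Galm, a galactose mutarotase, was at 20.4 ± 6.0 and 11.8 ± 0.33 CPM (adjusted p = 0.183 in edgeR). In hypoxia sensing, Cited2, which competes with HIF1α for its coactivators, was at 300.1 ± 5.7 and 239 ± 17.2 CPM, and the coactivator Crebbp at 63.0 ± 13.3 and 41.2 ± 7.7 CPM (edgeR adjusted p = 0.182 and 0.183). Among hypoxia-inducible targets, Ddit4, an inhibitor of mTORC1, was at 35.6 ± 4.7 and 24.5 ± 3.9 CPM and Insig2 at 7.02 ± 3.9 and 17.6 ± 7.8 CPM (edgeR adjusted p = 0.246 and 0.224). In gluconeogenesis, Fbp1 was at 13.2 ± 1.6 and 10.02 ± 2.3 CPM and Pck2 at 92.8 ± 16.9 and 84.8 ± 6.7 CPM (edgeR adjusted p = 0.582 and 0.721). Pdk4, a kinase of the same family as Pdk1, was not counted in either control library and had 27, 15, 1 and 32 counts in MC38 (edgeR adjusted p = 0.187). Set against 3 counts over both controls, the pooled 75 counts of MC38 are at least 9.85-fold higher. That bound covers counting error in the controls only. It does not hold for MC38 replicate 3 alone, at 0.0556 CPM.

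**Figure D4:**
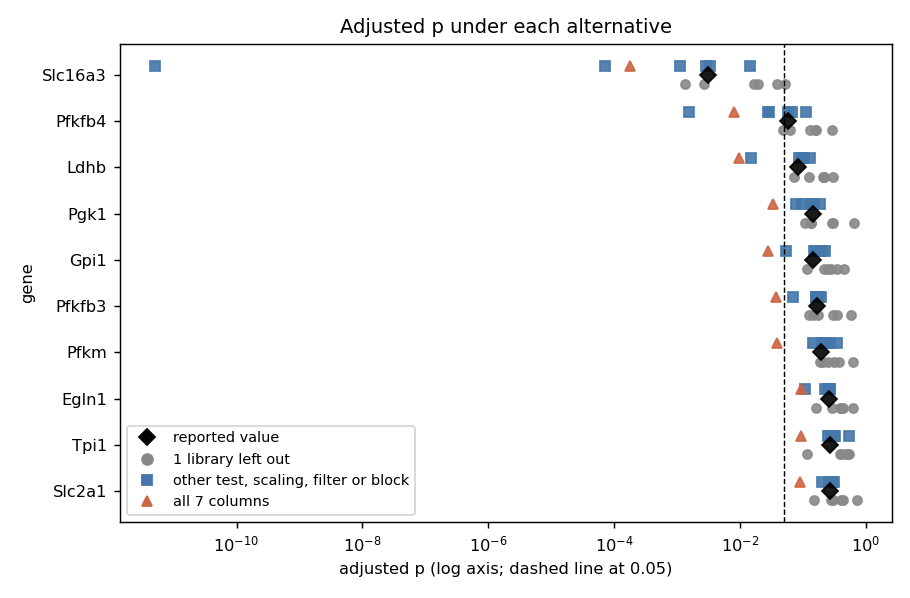
Each point is the adjusted p of a gene under the reported test (diamond), with 1 library left out (circles), under another test, scaling, filter or block (squares), or with control column 3 included (triangle), on a log axis with a dashed line at 0.05. Slc16a3 is past the line in all but 1 alternative, and the reported values of the other 9 genes lie to its right.

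The way the controls were counted bears on the number of calls. With control column 3 included as if independent, edgeR called 3 members higher, namely Slc16a3, Pfkfb4 and Pfkfb3, and 4 lower, namely Ldhb, Pfkm, Gpi1 and Pgk1. The same fit called 5.74% of all genes higher and 4.81% lower. Other fits called 4.14% and 2.57% (DESeq2), 0.633% and 0.499% (limma-voom), 1.89% and 1.34% (replicate block) and 1.41% and 0.941% (no filter on low counts). Since that column follows the other controls, these calls are given as a description and support nothing. Within the MC38 group the members' coefficients of variation ran from 2.91% for Ldha to 36.4% for Egln3, and Egln3, Hif1a and Epas1 were the most variable.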

How the data were processed

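RNA-seq counts of 7 samples of sorted HSCs were used. Per the labels' protocols, polyadenylated RNA of 1500 cells was reverse transcribed and amplified with 12 PCR cycles. No molecular identifiers are named, so PCR copies count as reads. The authors deposited read counts per Ensembl gene, and the submitters' processing notes name the build mm10 and, as tools, HTSeq 0.10.0, STAR 2.6.1 and Trim Galore 0.5.0. The sources used here state no annotation release, strand setting or filter. GENCODE mouse release 21 (GRCm38) supplied symbols, positions and exon lengths for 27797 of 28786 IDs. Levels per kilobase divide CPM by the union of annotated exons, which can exceed the length of a single transcript.

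The comparison was run in edgeR 4.0.16 under R 4.3.3 (TMM, filterByExpr, robust quasi-likelihood, threshold 0.05, no block) on 6 libraries. The common biological coefficient of variation was 0.366. Alternatives were limma 3.58.1 (voom), DESeq2 1.42.0, other scalings, no filter, all 7 columns, a replicate block and each library left out. The test was checked on simulated counts whose spread between libraries was set below that of these data. That check therefore does not cover a spread as wide as theirs. The members and gene lists were chosen with earlier results of these data known, so counts over them are descriptive. The genes given with values of every library were those past the adjusted threshold, those with an unadjusted p under 0.05 and no overlap between groups, and 14 genes that stand for the steps of the pathway. Of the other lists, called genes and the 2 of smallest p are named.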

Additional observations from a re-analysis of the deposited data

Results flagged for a closer look

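Pdk3 in MC38 replicate 3 stood apart from the other libraries of its group. It was at 53.4 CPM, and the next highest MC38 library was at 37.1 CPM, a gap of 0.867 of the group's range, above Dixon's critical value at 95% for 4 samples. It was the 1 such case among the 33 members, and chance flags about 5% of groups. Without that library the log2 fold change of Pdk3 was 0.11 in place of 0.27, and it did not pass either way (edgeR adjusted p = 0.859 and 0.574).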

How the results depend on the processing

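Of 13 alternatives for 33 genes, 26 genes kept their direction in every one. Slc16a3 kept its call in all but 1 of them, without control replicate 2. Members called higher numbered 1 as reported, 2 with no filter, with DESeq2 and with the replicate block, 3 with all 7 columns, and 0 to 2 with 1 library left out. Members called lower numbered 0 as reported, 1 with DESeq2, 4 with all 7 columns and 0 in every other alternative. All genes called higher and lower, 148 and 81 as reported, were 302 and 202 with no filter, 634 and 393 with DESeq2, 791 and 663 with all 7 columns, 269 and 190 with the replicate block, and 90 higher with limma-voom. With 1 library left out they ran from 44 to 259 higher (fewest without control replicate 1, most without MC38 replicate 1) and from 16 to 183 lower. Other pathway genes called higher numbered 2 as reported, 3 with DESeq2, 4 with all 7 columns and 0 to 2 with 1 library left out; those called lower were 1 with DESeq2 and 4 with all 7 columns. The replicate numbers pair no libraries by the labels, and the deviations of same-numbered libraries correlated at 0.07 for number 1 and -0.05 for number 2. Numbers 3 and 4 exist only in MC38 among these libraries. Fold changes with the replicate block therefore rest on libraries 1 and 2 of each group. With that block, the log2 fold change turned to 0.12 for Egln3, 0.18 for Hk1, 0.0302 for Aldoa and -0.0366 for Pgam1. With 1 library left out, signs turned within -0.61 to 2.12 for Epas1, -0.25 to 0.27 for Egln3, -0.14 to 0.32 for Slc2a3, -0.13 to 0.0793 for Hk1, -0.0277 to 0.18 for Pfkp, -0.19 to 0.12 for Aldoa and -0.0112 to 0.17 for Pgam1. None of these genes was called in any alternative, and the cause of the changes was not tested. The median log2 fold change of all genes was 0.01 as reported, 0.02 with DESeq2 size factors and 0.01 with upper-quartile factors. Calls were also fewer without control replicate 2 (58 and 25), MC38 replicate 2 (69 and 28) and MC38 replicate 4 (77 and 31). With 1 control left, its spread is assumed to be that of the MC38 libraries.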
